A study of Mus musculus with 48 samples.

Results

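The metallothionein genes Mt1, Mt2 and Mt3, the zinc exporter gene Slc30a1 and 6 genes of iron handling (Fth1, Ftl1, Tfrc, Slc40a1, Slc11a2 and Cp) were followed in RNA from the cerebral cortex of 48 mice. The 10 genes were taken by symbol, as genes that respond to the metals carried by airborne particles, from the 16952 genes listed in both deposited tables. One table held 27086 genes for the B6 exposure and the other 18943 genes for the APOE-TR exposure. In all 48 mice the 10 members had values above the lowest value of the mouse's column, as did 11067 genes in all.

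Mice breathed filtered air or nPM, particles of nanometre size collected beside an urban freeway, for 5 h per day on 3 days per week, with 4 mice in each of 12 groups. The groups were female and male C57BL/6J (B6) mice, labelled 4 months of age, exposed for 8 weeks, and female and male mice of the APOE3 and APOE4 lines, labelled 6 months of age, exposed for 15 weeks. In the APOE lines (APOE-TR) a human allele replaces mouse Apoe by targeted replacement, in filtered-air and nPM mice alike. The 2 exposures used different nPM batches and separate tables, so B6 and APOE-TR mice differ in genotype, age, duration, nPM batch and normalization together, and these cannot be told apart. Values are CPM (counts of reads scaled to library size) as deposited, single mice are named by their label number, and n is the number of mice.

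Metallothioneins are small cysteine-rich proteins that bind zinc and copper. Free zinc activates the transcription factor MTF1, which binds metal response elements in front of Mt1, Mt2 and Slc30a1, and glucocorticoids also raise Mt1 and Mt2, which in brain are best known from astrocytes, whereas Mt3 is largely a brain gene and responds little to metals. Iron enters cells through the transferrin receptor (Tfrc), leaves the endosome through DMT1 (Slc11a2), is stored in a shell of heavy (Fth1) and light (Ftl1) ferritin chains, and is exported by ferroportin (Slc40a1) with help from the ferroxidase ceruloplasmin (Cp). Iron regulatory proteins hold back the translation of ferritin mRNA and protect Tfrc mRNA from decay by binding a hairpin, the iron-responsive element, so for ferritin the mRNA level does not report the whole response to iron.

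The promoter windows of the metallothioneins are shown because these windows differ in matches to the core of the metal response element. The 250 bases before the start of each gene were searched on both strands for the core of the metal response element, spelled TGCACNC or TGCGCNC, and matches are in capitals (RefSeq sequences, GRCm38.p6, each 5′ to 3′ on the gene's strand, a match on the other strand standing in capitals as its complement).
Mt1 promoter, chr8:94178839-94179088 (+ strand): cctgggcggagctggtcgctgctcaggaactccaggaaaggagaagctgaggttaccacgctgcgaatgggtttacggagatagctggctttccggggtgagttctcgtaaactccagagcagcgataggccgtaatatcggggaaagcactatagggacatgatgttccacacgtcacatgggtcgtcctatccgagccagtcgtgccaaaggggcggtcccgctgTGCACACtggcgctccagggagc
Mt2 promoter, chr8:94172368-94172617 (+ strand): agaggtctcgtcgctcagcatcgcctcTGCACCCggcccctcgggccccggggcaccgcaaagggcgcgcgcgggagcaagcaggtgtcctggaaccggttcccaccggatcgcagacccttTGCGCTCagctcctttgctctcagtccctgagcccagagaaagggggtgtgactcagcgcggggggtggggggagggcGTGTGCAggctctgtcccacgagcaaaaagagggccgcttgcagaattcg
Mt3 promoter, chr8:94152357-94152606 (+ strand): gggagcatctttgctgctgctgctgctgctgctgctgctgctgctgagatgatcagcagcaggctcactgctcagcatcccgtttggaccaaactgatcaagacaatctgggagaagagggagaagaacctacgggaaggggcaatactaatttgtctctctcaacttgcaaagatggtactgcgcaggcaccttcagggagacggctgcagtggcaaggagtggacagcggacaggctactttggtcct
Slc30a1 promoter, chr1:191906531-191906780 (+ strand): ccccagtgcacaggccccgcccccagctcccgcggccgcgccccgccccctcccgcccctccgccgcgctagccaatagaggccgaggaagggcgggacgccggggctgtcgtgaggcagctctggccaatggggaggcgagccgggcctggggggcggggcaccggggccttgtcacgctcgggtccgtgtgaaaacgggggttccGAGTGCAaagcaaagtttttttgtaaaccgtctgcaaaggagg

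Within these windows Mt2 held 3 cores, the nearest 50 to 44 bases before its start on the other strand. Mt1 held 1 core at 23 to 17 bases, Slc30a1 held 1 and Mt3 held none. Among 27025 genes with a promoter window, 23.8% held at least 1 core, 5.91% at least 2 and 1.46% at least 3. Mt3, Mt2 and Mt1 lie side by side on chromosome 8, at chr8:94152607-94154149, chr8:94172618-94173568 and chr8:94179089-94180328 (mm10, + strand), and Slc30a1 lies at chr1:191906781-191913248. A match is a stretch of letters, and binding was not measured. The windows depend on the annotated start, which for Mt2 was 94172618 in the APOE-TR table and 94172664 in the B6 table. Cores outside the windows were not counted, so the counts do not describe whole promoters. Of the 10 members, 8 had a window in the RefSeq table, and of the iron genes Tfrc held 2 cores while Fth1, Ftl1 and Cp held none.

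Fth1, Ftl1, Tfrc and Slc40a1 held matches to the iron-responsive element. These are shown as 30-base windows from GENCODE vM21 transcripts (GRCm38, 5′ to 3′ on the transcript) with the bulged C and the loop in capitals. The search asked for a C, 5 bases, the loop CAGTGN and 5 bases that pair with those before the loop.
Fth1 5′ UTR, chr19:9982732-9982761 (+ strand): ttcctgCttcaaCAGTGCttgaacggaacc
Ftl1 5′ UTR, chr7:45459778-45459807 (- strand): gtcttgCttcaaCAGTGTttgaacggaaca
Tfrc 3′ UTR site 1, chr16:32631219-32631248 (+ strand): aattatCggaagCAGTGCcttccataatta
Tfrc 3′ UTR site 2, chr16:32631598-32631627 (+ strand): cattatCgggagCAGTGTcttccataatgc
Tfrc 3′ UTR site 3, chr16:32631663-32631692 (+ strand): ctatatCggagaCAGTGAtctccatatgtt
Tfrc 3′ UTR site 4, chr16:32631710-32631739 (+ strand): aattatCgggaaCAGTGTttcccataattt
Slc40a1 5′ UTR, chr1:45925464-45925493 (- strand): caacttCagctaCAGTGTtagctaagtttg

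Of the 10 members, 4 held a match, each in an untranslated region. Matches anywhere in a transcript, coding sequence included, were held by 294 of 21877 protein-coding genes (1.34%). Tfrc carried 4 matches, all behind its coding sequence, and the other 3 genes carried 1 each in front of theirs. The Slc11a2, Cp, metallothionein and Slc30a1 transcripts held none by this rule. The rule allowed no unpaired base in the stem of 5, so an element of another shape would be missed. The genes lie at chr19:9980600-9985112 (Fth1), chr7:45457944-45459887 (Ftl1), chr16:32608896-32632795 (Tfrc), chr1:45908070-45925595 (Slc40a1), chr15:100387898-100423056 (Slc11a2) and chr3:19957054-20009751 (Cp).

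Per kilobase of longest transcript, Fth1 was the most abundant member in both tables, with a mean of 435 CPM per kb in the 32 APOE-TR mice and 333 CPM per kb in the 16 B6 mice. In APOE-TR mice the order below it was Mt3 (138 CPM per kb), Ftl1 (97.7), Mt2 (54.3), Mt1 (45.5), Tfrc (20.1), Slc11a2 (8.05), Slc30a1 (6.17), Slc40a1 (1.97) and Cp (1.69). Each of these genes stood above the next in 24 to 32 of 32 mice, with the fewest for Mt3 over Ftl1 (24) and for Mt2 over Mt1 (26), so these neighbours were not apart. In B6 mice the order was Fth1, Mt3 (160 CPM per kb), Mt1 (47.0), Mt2 (40.9), Ftl1 (18.7), Tfrc (5.90), Slc11a2 (4.16), Slc30a1 (3.31), Slc40a1 (1.4) and Cp (0.965), each above the next in 11 to 16 of 16 mice. By these means per kb, Ftl1 stood above Mt1 and Mt2 in APOE-TR mice and below both in B6 mice. The order depends on the length used, which was 1085 bases for Mt1 and 511 for Mt2, and other transcript lengths were not tried. In CPM not divided by length, Mt1 was above Mt2 in APOE-TR mice. The medians were 64.9 and 33.1 CPM in females and 32.6 and 19.1 CPM in males. The B6 table also listed 5 ferritin pseudogenes, among them Ftl1-ps1 at 2.64 to 40.7 CPM and Fth-ps3 at 38 to 98.1 CPM, and the APOE-TR table listed none. The paper states that only reads mapping to a single place were kept. Whether ferritin reads were split between gene copies was not tested, and the ferritin levels are uncertain to that extent.

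**Figure D1:**
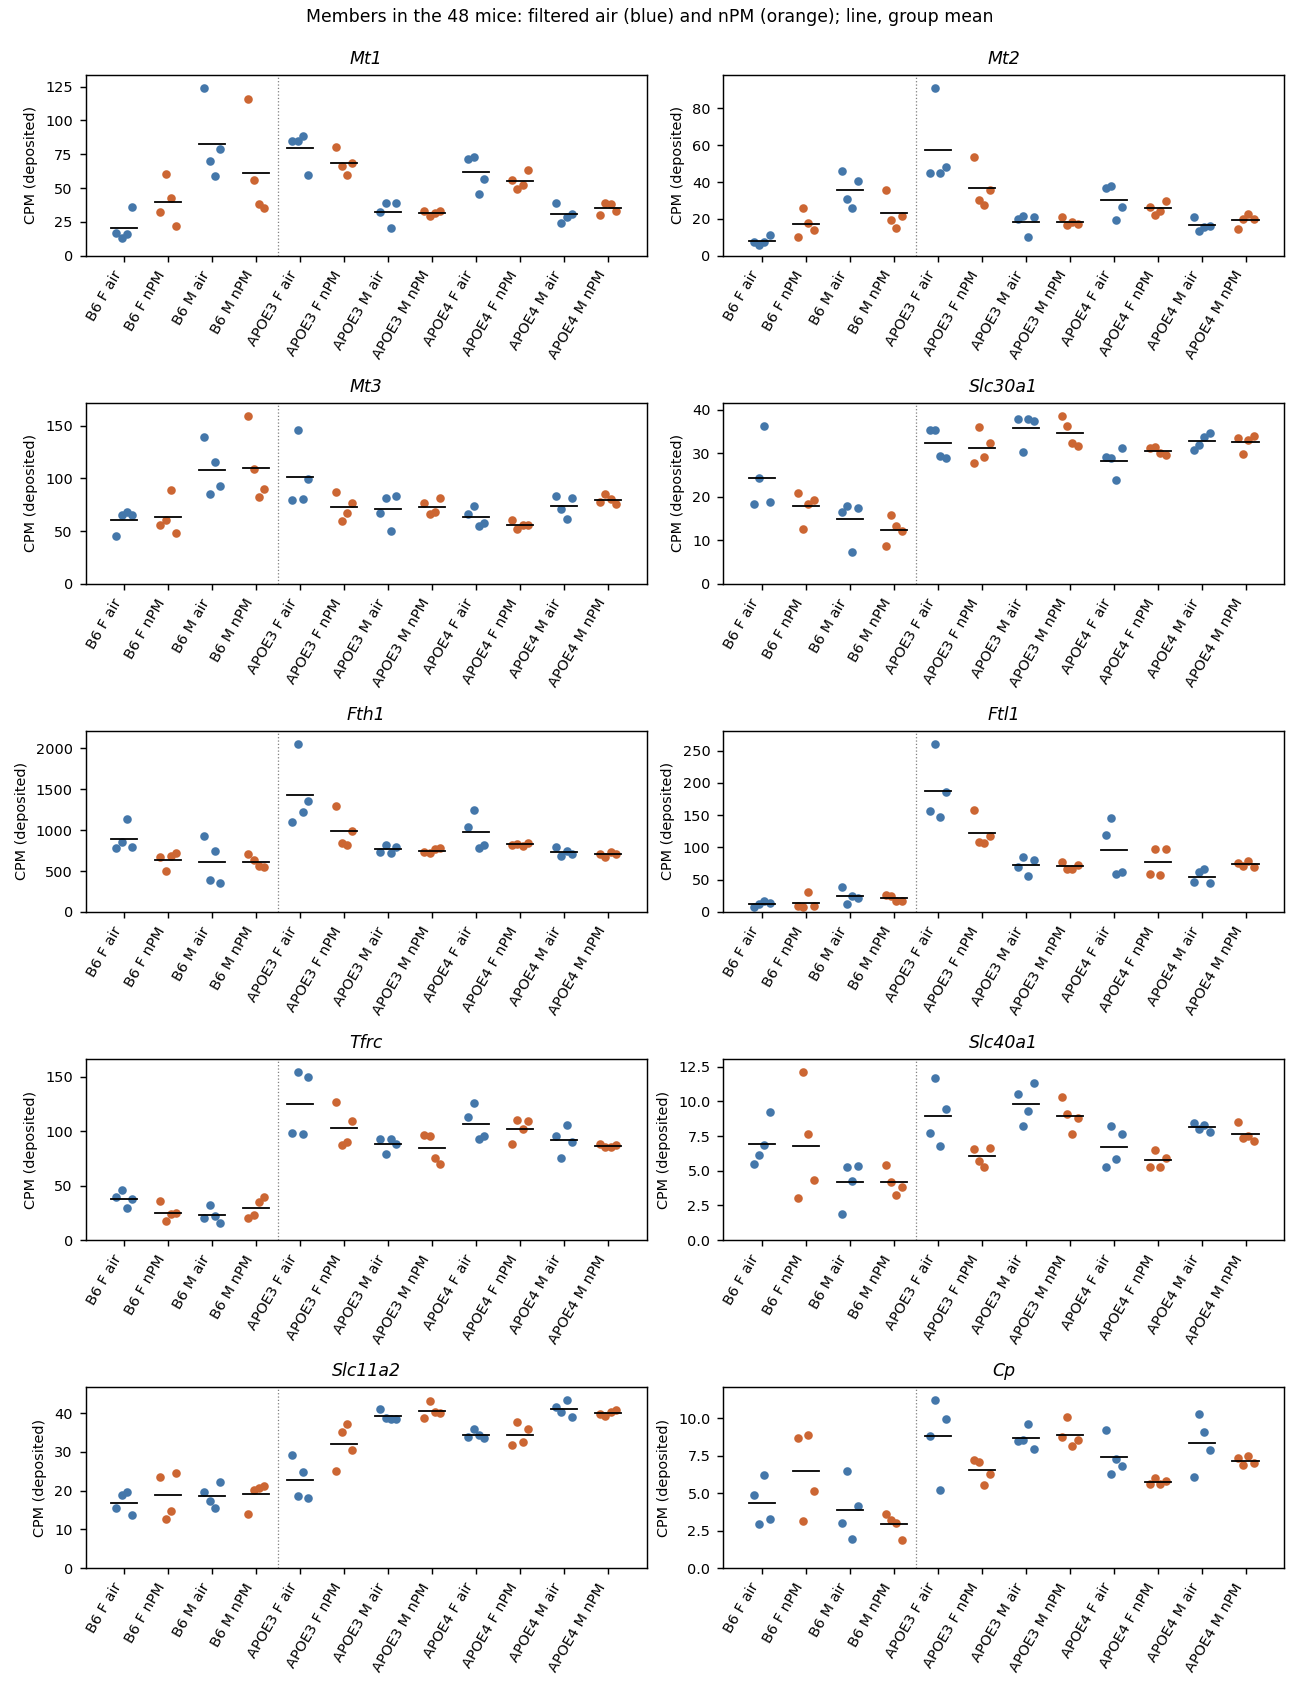
Deposited CPM (vertical axis) of the 10 members in each of the 48 mice, by group (horizontal axis); points are mice, filtered air in blue and nPM in orange, and lines are group means of 4 mice. Mt1 lay at 45.8 to 88.2 CPM in APOE-TR females and at 20.1 to 39 CPM in APOE-TR males; the dotted line separates 2 tables that were normalized separately.

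Reads per mouse, estimated from the lowest value of each column, were 17.8 to 22.3 M in APOE-TR females, 22.4 to 31.3 M in APOE-TR males and 2.08 to 24.4 M in B6 mice. Summed markers of neurons were at 2627 to 8649 CPM and of astrocytes at 1048 to 4097 CPM in every mouse, and choroid plexus markers reached 1495 CPM in APOE3 female control F6. No sample label holds the number in that mouse's column, which was placed by the group in its name. APOE3 female controls 61 and F6 stood apart in their transcript length slope, which is the slope of a library's log2 levels, relative to the mean of its table, on log2 transcript length. It was −0.545 and −0.397 in these mice and −0.218 to 0.156 in the other APOE-TR mice. Results with an unadjusted p under 0.05 that use this group and move by over 1.5 times without these 2 mice are given both ways. Where groups are given as apart or without overlap, the share of all genes without overlap was not counted.

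Few members differed with nPM past the threshold of the study, an unadjusted p under 0.005. Over all 48 mice, with sex and genotype in the model, 0 of 10 members were called by limma against 1.49% of all genes tested. An unadjusted p under 0.05 was held by 1 member and by 14.5% of all genes. That member was Fth1, with a log2 difference of −0.20 (SE 0.0864, unadjusted p = 0.027, adjusted p = 0.316), and without APOE3 female controls 61 and F6 it was −0.14 (limma unadjusted p = 0.083). With the transcript length slope as a covariate it was −0.12. Within sex and genotype, limma called 0 members in B6 females (background 1.18%, 4 members with p under 0.05), B6 males (0.241%, 1 member), APOE3 females (0.672%, 3 members), APOE3 males (0.154%, 0 members) and APOE4 females (0.26%, 1 member). The share of all genes with an unadjusted p under 0.05 in these groups was 10.4%, 4.4%, 21%, 2.25% and 5.61%, in that order. In APOE4 males limma called 1 member, Ftl1, which rose, against 0.178% of all genes. edgeR on recovered reads called the same numbers in the APOE-TR groups, namely 0, 0, 0 and 1. The median log2 difference of the members was −0.341 in APOE3 females and −0.171 in APOE4 females, where that of all genes was −0.003 and 0.001. Without controls 61 and F6 the median in APOE3 females was −0.178. In the other 4 groups it lay between −0.062 and 0.013.

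**Figure D2:**
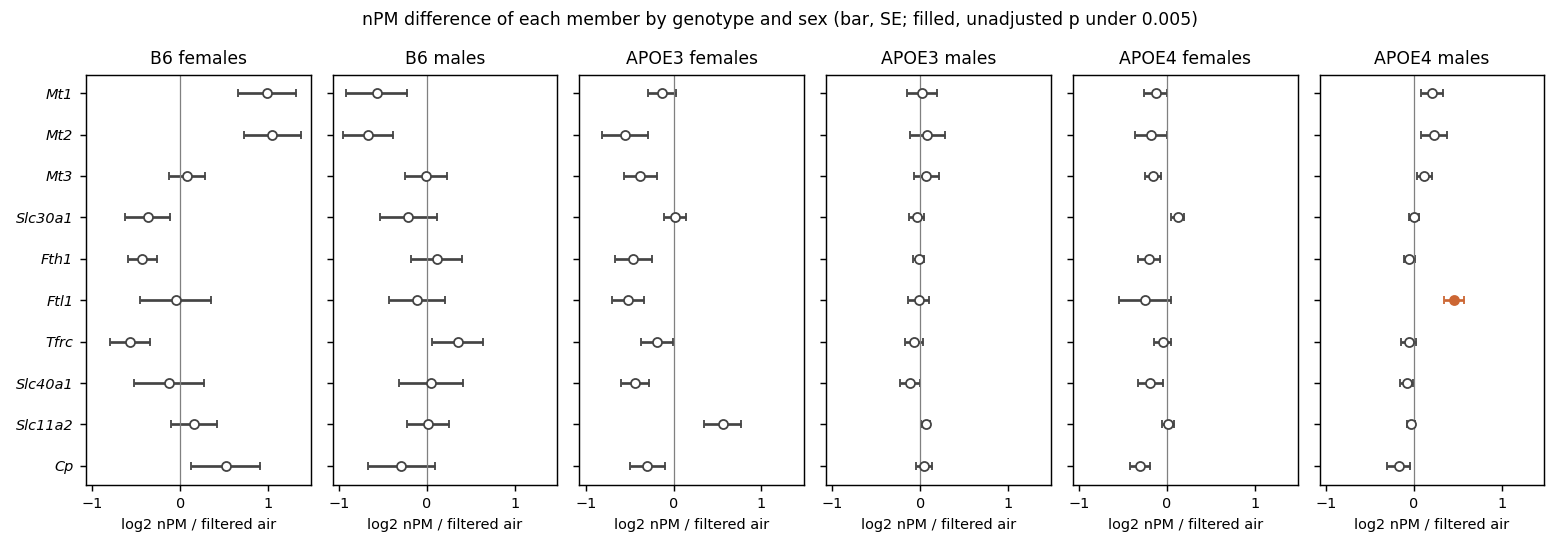
log2 difference between nPM and filtered air (horizontal axis) of each member (vertical axis) in the 6 groups by genotype and sex; bars are SE from limma (4 against 4 mice). Mt1 and Mt2 stood at 0.99 and 1.05 in B6 females and at −0.57 and −0.67 in B6 males, and Ftl1 in APOE4 males (filled, 0.46) is the member called at an unadjusted p under 0.005.

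Mt1 and Mt2 gave the widest nPM differences, and in B6 mice they ran in opposite directions in females and males. Mt2 was at 7.45, 5.62, 7.50 and 11.4 CPM in the 4 control females and at 10.4, 25.9, 17.8 and 13.7 CPM in the 4 nPM females. Among B6 males it was at 45.8, 30.6, 25.8 and 40.3 CPM in controls and at 35.9, 19.6, 14.9 and 21.7 CPM with nPM. The groups overlapped in both sexes, by control 43 and nPM 50 in females and by nPM 10 above the 2 lowest controls in males. The means were 7.98 ± 2.42 and 16.9 ± 6.68 CPM in females (SD, n = 4), a log2 difference of 1.05 (SE 0.32, limma unadjusted p = 0.00568, adjusted p = 0.384). In males they were 35.6 ± 9.06 and 23 ± 9.04 CPM, a log2 difference of −0.67 (SE 0.286, limma unadjusted p = 0.0342). The difference of the female and male responses, tested as a contrast added after the levels were seen, was 1.71 for Mt2 (SE 0.441, limma unadjusted p = 0.000878, adjusted p = 0.51), or 3.27-fold. This was the 1 member called in that contrast, where 0.867% of all genes were. It stayed between 1.47 and 1.95 with each of the 16 mice left out in turn and was called each time.

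Mt1 moved alongside Mt2, its neighbour on chromosome 8. Its levels were 16.9, 13.3, 16 and 35.7 CPM in B6 control females and 32.6, 60.7, 42.6 and 22.3 CPM with nPM, and in B6 males 124, 70.2, 58.6 and 78.8 CPM in controls and 116, 55.7, 37.9 and 35.0 CPM with nPM. Control female 43 lay above 2 of the nPM females, and nPM male 10 lay above 3 of the control males. The log2 difference was 0.99 in females (SE 0.334, limma unadjusted p = 0.0102) and −0.57 in males (SE 0.345, limma unadjusted p = 0.12), and the difference of responses was 1.55 (SE 0.524, unadjusted p = 0.00744). In limma, leaving out control 43 (1.85, unadjusted p = 0.00156), male control 3 (1.71, unadjusted p = 0.00476), female nPM 53 (1.80, unadjusted p = 0.0026) or male nPM 10 (1.92, unadjusted p = 0.000642) brought the last value under the threshold. Within B6 females, Mt1 passed it in limma without control 43 (1.29, unadjusted p = 0.0011) or nPM 53 (1.24, unadjusted p = 0.00251) and Mt2 without control 43 (1.22, unadjusted p = 0.0036) or nPM 50 (1.24, unadjusted p = 0.00176). Tfrc also passed without nPM 50 (−0.75, limma unadjusted p = 0.0039). Summed astrocyte markers were at 3076 to 3552 CPM in B6 control females and at 2348 to 2834 CPM in nPM females. Slc1a2 alone was at 409 to 2503 CPM in B6 mice. Of the 7 astrocyte markers, 3 had a positive and 4 a negative nPM difference in B6 females, and 0 were called by limma. All genes there summed to a mean of 643388 CPM in controls and 563957 CPM with nPM. In B6 males summed astrocyte markers were at 1048 to 2329 CPM in controls and 1277 to 2878 CPM with nPM. Neuron markers were at 2627 to 6741 CPM (mean 4459) in male controls and 5639 to 7477 CPM (mean 6486) in males with nPM. The part of these markers in the Mt1 and Mt2 differences was not tested. In bulk tissue, fewer cells of a type and less RNA per cell cannot be told apart.

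**Figure D3:**
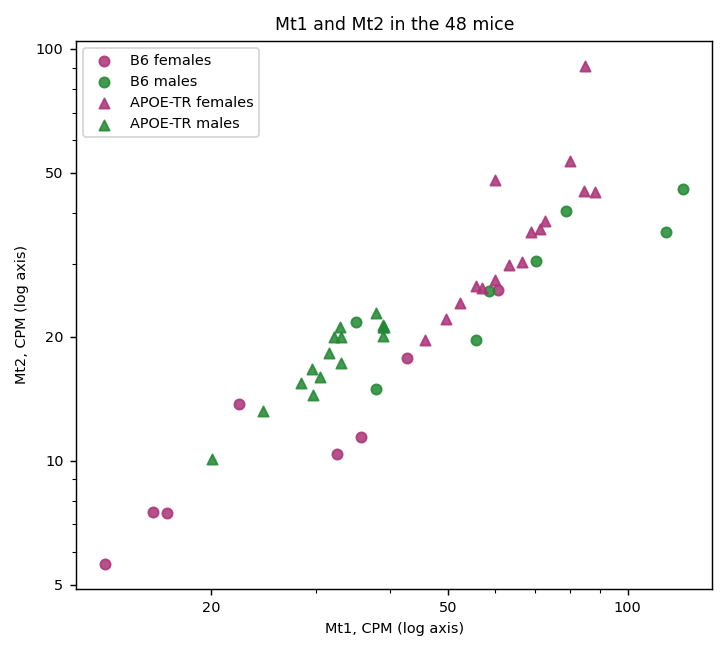
Mt1 (horizontal axis) against Mt2 (vertical axis), CPM on log axes, in the 48 mice by table (shape) and sex (colour). B6 females reach down to 13.3 CPM of Mt1 and 5.62 CPM of Mt2, and APOE-TR females lie above all APOE-TR males in Mt1; levels of the 2 tables were normalized separately.

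In APOE-TR mice Mt1 and Mt2 showed smaller nPM differences, with log2 values for Mt1 of −0.13 in APOE3 females, 0.02 in APOE3 males, −0.13 in APOE4 females and 0.21 in APOE4 males (SE 0.127 to 0.172). Mt2 ran from −0.55 (SE 0.261, limma unadjusted p = 0.0668) in APOE3 females to 0.23 (SE 0.151) in APOE4 males. In APOE3 females Mt2 was at 45.1, 91.1, 44.9 and 48.1 CPM in controls and 53.5, 30.4, 27.4 and 35.9 CPM with nPM, where control 61 was the highest mouse and nPM 55 lay above the other 3 controls. Without controls 61 and F6 the difference in APOE3 females was −0.31 for Mt2 (limma unadjusted p = 0.23), −0.31 for Mt1 (unadjusted p = 0.0369) and −0.13 for Mt3. Mt3, which held no core in its promoter window, had log2 differences between −0.38 and 0.12 in the 6 groups, with unadjusted p from 0.0771 to 0.97 in limma. Slc30a1, which moves zinc out of the cell, lay between −0.37 and 0.12, with unadjusted p from 0.143 to 0.973. Neither gene was called in any nPM comparison.

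Among the ferritin chains, Fth1 was lower with nPM in B6 females. Its levels were 777, 854, 1142 and 798 CPM in controls and 667, 497, 679 and 720 CPM with nPM, so every nPM mouse lay below every control. The means were 893 ± 170 and 641 ± 98.3 CPM (SD, n = 4), a log2 difference of −0.43 (SE 0.163, limma unadjusted p = 0.0196, adjusted p = 0.404), which did not pass the threshold. In B6 males Fth1 was at 349 to 929 CPM in controls and at 549 to 707 CPM with nPM, and the log2 difference was 0.11 (SE 0.286). In APOE3 females it was at 1097, 2052, 1220 and 1358 CPM in controls and 1297, 843, 818 and 986 CPM with nPM, and the log2 difference was −0.46 (SE 0.209, limma unadjusted p = 0.058). The 2 control mice with the highest Fth1 there were 61 and F6, and without them the difference was −0.23 (limma unadjusted p = 0.274). In APOE4 females, APOE3 males and APOE4 males the log2 differences were −0.21, −0.02 and −0.05.

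Ftl1 in APOE4 males was the member called for nPM within a sex and genotype. It was at 46.2, 61.5, 65.8 and 44.2 CPM in controls and at 75.5, 71.2, 78.8 and 69.7 CPM with nPM, with no overlap. The means rose from 54.4 ± 10.8 to 73.8 ± 4.15 CPM (SD, n = 4), or 1.38-fold, a log2 difference of 0.46 (SE 0.114, limma unadjusted p = 0.00186, adjusted p = 0.956). The call depended on which of these 8 mice were kept and on how the variance was estimated. In limma it was lost without control 3 (log2 0.39, unadjusted p = 0.00651), control 91 (0.37, unadjusted p = 0.00503), nPM 23 (0.45, unadjusted p = 0.00606) or nPM 65 (0.43, unadjusted p = 0.00683), and with a variance shared over the APOE-TR groups (unadjusted p = 0.0553). In the other groups the log2 differences were −0.52 in APOE3 females (SE 0.181, limma unadjusted p = 0.0185), −0.02 in APOE3 males, −0.25 in APOE4 females, −0.05 in B6 females and −0.11 in B6 males.

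Ftl1 also varied within the APOE4 female groups and the APOE4 male controls, which was seen from its ratio to Fth1, the chain it is assembled with. Per 1000 CPM of Fth1, Ftl1 was at 57.9, 89.9, 87.8 and 62.2 CPM in APOE4 male controls and at 107, 106, 107 and 98.6 CPM in APOE4 males with nPM. In APOE4 females it was at 115, 118, 75.1 and 76.1 CPM in controls and at 71.2, 118, 71.4 and 115 CPM with nPM. The females of each exposure thus split into a low and a high pair. The APOE3 females lay between 120 and 143 CPM, above both pairs, and the APOE3 males between 76.7 and 106 CPM. Among 16347 genes over the 16 APOE4 mice, with log2 levels centred within sex, the genes with the largest absolute correlation to Ftl1 included some that lay near it on chromosome 7. Among them were Slc6a16 (r = −0.94, chr7:45240753-45273366), which encodes a transporter of the SLC6 family, and Ppp1r15a (r = −0.90, chr7:45522917-45526269), a phosphatase subunit of the stress response. Of the 10 genes of largest correlation, 4 lay within 1000 kb of Ftl1, as did 90 of all 16347 genes (0.551%). Centred within the 4 groups the count was 3 of 10, and in the 16 APOE3 mice it was 0 of 10 with 0.538% of genes in that window. The 2 counts are not like for like, since the median absolute correlation with Ftl1 over all genes was 0.636 in APOE3 and 0.249 in APOE4 mice. These correlations are descriptions over mice that share a sequencing table, and the genes were chosen after their values were seen.

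Slc6a16 was at 1.34, 0.61, 0.863 and 1.37 CPM in APOE4 male controls, 0.288, 0.577, 0.731 and 0.697 CPM in APOE4 males with nPM, 0.467, 0.295, 1.72 and 1.48 CPM in APOE4 female controls and 1.93, 0.565, 1.86 and 1.01 CPM in APOE4 females with nPM. The 6 APOE4 mice with the lowest ratio of Ftl1 to Fth1 were the 6 with the highest Slc6a16. None of these 6 was an nPM male, 2 were male controls, 2 were female controls and 2 were nPM females. APOE3 mice were at 0.274 to 0.917 CPM. Slc6a16 rested on about 8 to 58 reads per APOE4 mouse. Slc6a16 was chosen by its correlation with Ftl1 over these same mice, so its levels and their order are a description. Whether the mice differed in DNA sequence there was not tested.

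**Figure D4:**
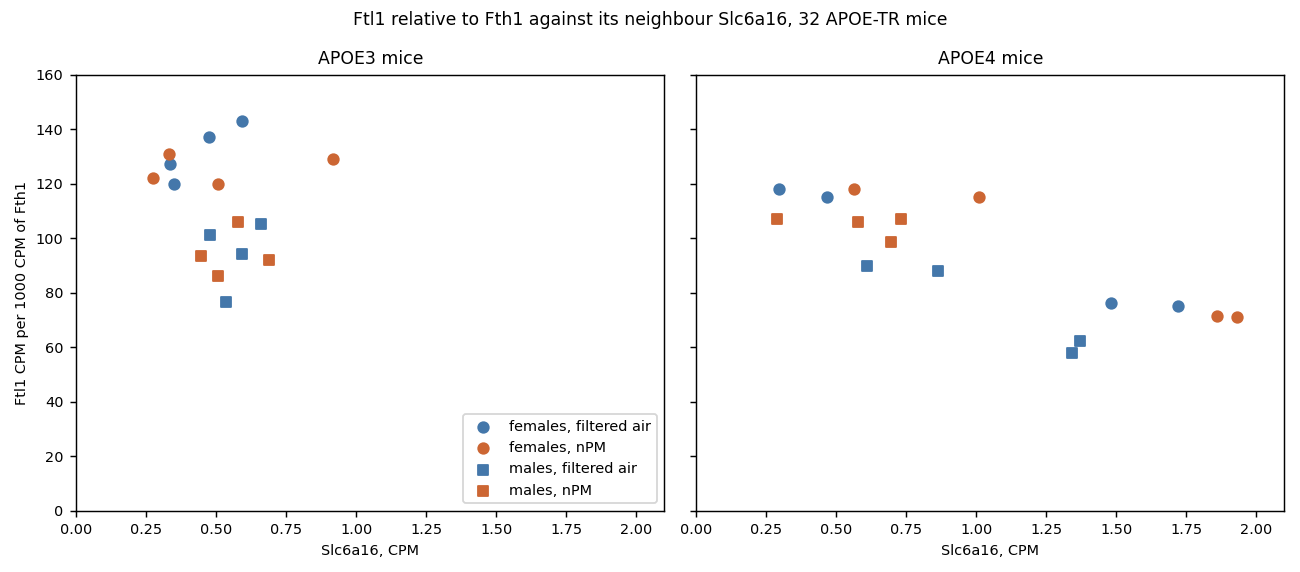
Ftl1 CPM per 1000 CPM of Fth1 (vertical axis) against Slc6a16 CPM (horizontal axis) in APOE3 and APOE4 mice, with sex by shape and exposure by colour. In APOE4 mice the 6 lowest ratios (57.9 to 76.1) go with the 6 highest Slc6a16 values (1.34 to 1.93 CPM), and no APOE3 mouse is above 0.917 CPM of Slc6a16.

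Among the genes of iron uptake and export no difference with nPM passed the threshold in the main fits (limma, all mice of a comparison). In APOE3 females 2 of them had an unadjusted p under 0.05 in limma, as did 21% of all genes. Slc40a1, the iron exporter, was at 7.74, 11.7, 6.79 and 9.42 CPM in controls and at 6.58, 5.71, 5.26 and 6.64 CPM with nPM, with no overlap (log2 difference −0.44, SE 0.157, limma unadjusted p = 0.0214, adjusted p = 0.23). Slc11a2, the endosomal iron transporter, was at 29.1, 18.7, 24.9 and 18 CPM in controls and at 25, 35.1, 37.3 and 30.5 CPM with nPM, where nPM 55 lay among the controls (0.56, SE 0.212, unadjusted p = 0.0274, adjusted p = 0.23). The 2 controls lowest in Slc11a2 and highest in Slc40a1 were 61 and F6. Without both, the limma log2 differences were 0.25 for Slc11a2 (unadjusted p = 0.198), −0.23 for Slc40a1 (unadjusted p = 0.159) and −0.30 for Ftl1 (unadjusted p = 0.106). With these mice kept and a variance shared over the APOE-TR groups, Slc11a2 (limma unadjusted p = 7.32e-05) and Slc40a1 (0.00194) passed the threshold. In that fit 30.8% of all genes passed it. Summed oligodendrocyte markers were at 4792 to 6990 CPM in these controls and 3663 to 4998 CPM with nPM, and microglial markers at 327 to 459 and 239 to 325 CPM. The part of these markers in the differences was not tested.

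Fth1 and Slc11a2 followed the transcript length slope of the library in APOE-TR mice. Centred within groups over 32 mice, the correlation with the slope was −0.86 for Fth1, −0.83 for Mt3, −0.73 for Tfrc, −0.70 for Mt2 and 0.80 for Slc11a2, and it was 0.09 for Slc30a1 and −0.23 for Mt1. With the slope as a covariate in limma, the nPM difference in APOE3 females was 0.13 for Slc11a2 (unadjusted p = 0.229), −0.18 for Slc40a1 (unadjusted p = 0.155) and −0.17 for Ftl1 (unadjusted p = 0.105). In B6 females, where the slope was 0.006 to 0.077, the Mt2 difference was 0.97 with the covariate and 1.05 without it.

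**Figure D5:**
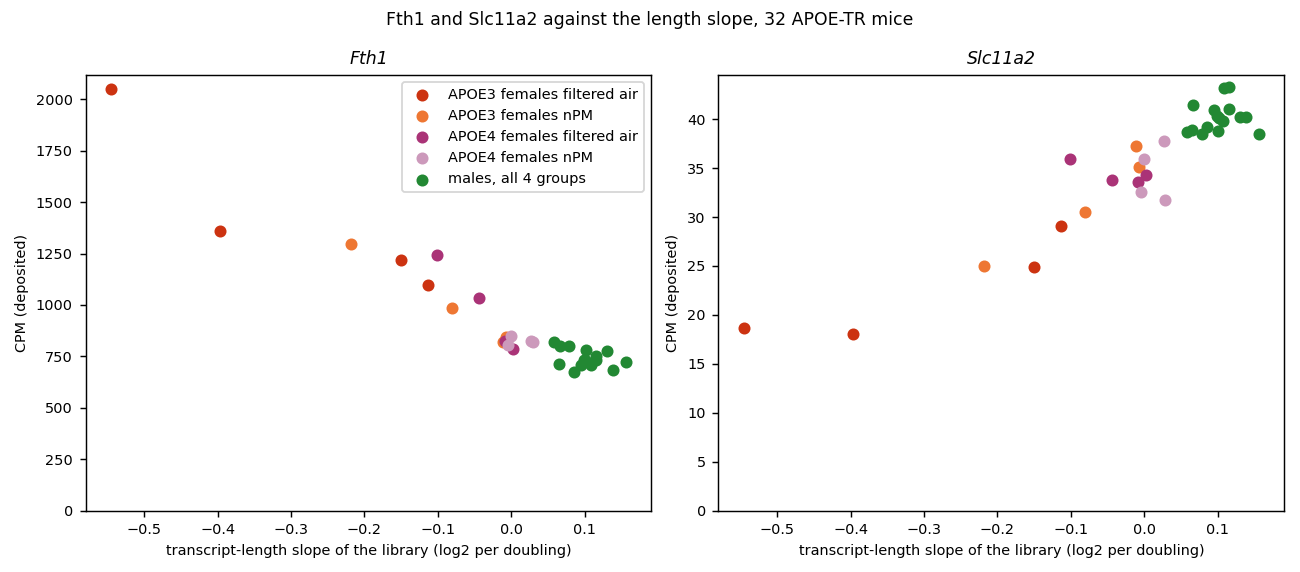
Fth1 and Slc11a2 CPM (vertical axes) against the transcript length slope of the library (horizontal axis, log2 level per doubling of length) in the 32 APOE-TR mice, coloured by group. APOE3 female controls 61 (slope −0.545) and F6 (−0.397) hold the highest Fth1 values and the lowest Slc11a2 values, 18.7 and 18 CPM.

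Tfrc, which takes up transferrin-bound iron, was lower with nPM in B6 females, at 39.5, 45.8, 29.2 and 37.6 CPM in controls and 35.4, 17.2, 23.7 and 24.6 CPM with nPM (log2 difference −0.57, SE 0.23, limma unadjusted p = 0.028). Only nPM 50 lay within the range of the controls. In B6 males Tfrc was at 20.3, 32.6, 22.1 and 15.6 CPM in controls and 20.3, 23.1, 34.7 and 39.9 CPM with nPM (0.35, SE 0.287, unadjusted p = 0.239), and the difference of the responses was −0.93 (SE 0.379, unadjusted p = 0.0229). In APOE-TR groups the Tfrc differences lay between −0.19 and −0.05, with 0.08 in APOE3 females without controls 61 and F6. Cp, which oxidises exported iron, was at 9.24, 6.30, 7.27 and 6.81 CPM in APOE4 female controls and at 5.61, 6.05, 5.63 and 5.80 CPM with nPM, with no overlap (−0.31, SE 0.114, unadjusted p = 0.0193, adjusted p = 0.753, limma). Choroid plexus, a known source of Cp, had summed markers of 38.9 to 1185 CPM in these controls and 21.0 to 40.1 CPM with nPM. Its part in the difference was not tested.

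Comparisons of APOE4 with APOE3 gave no member at 5% FDR in the main fits. In the 32 APOE-TR mice alone, without the B6 mice, Ftl1 passed it (−0.49, limma adjusted p = 0.0327), as did 5.96% of all genes. Over all mice limma called 0 of 10 members, against 0.37% of genes. An unadjusted p under 0.05 was held by 14.5% of all genes and by 3 members, namely Ftl1 (log2 difference −0.52, SE 0.208), Fth1 (−0.23, SE 0.106) and Slc11a2 (0.19, SE 0.0898). With the length slope as a covariate these were −0.18, −0.10 and 0.08, and without APOE3 female controls 61 and F6 they were −0.37, −0.15 and 0.10, with no unadjusted p under 0.05 in limma for any of the 3 in either fit. Within sex and exposure the counts were 0 in filtered air females (background 0.232%, 4 members with p under 0.05), nPM females (0.145%, 4 members), filtered air males (0.439%, 2 members) and nPM males (0.499%, 1 member), and edgeR also called 0 in each of these 4. The share of all genes with an unadjusted p under 0.05 in limma was 41.1%, 9.12%, 5.81% and 9.9%, in that order. In filtered air females Ftl1 was at 119, 146, 59.1 and 62.6 CPM in APOE4 and at 157, 260, 147 and 186 CPM in APOE3 mice, with no overlap (−0.95, SE 0.305, limma unadjusted p = 0.0127, adjusted p = 0.0772). Slc11a2 was at 33.8, 35.9, 34.3 and 33.6 CPM in APOE4 and at 29.1, 18.7, 24.9 and 18 CPM in APOE3 mice, again apart (0.69, SE 0.178, adjusted p = 0.0764). Mt2 (−0.82, SE 0.267, adjusted p = 0.0772) and Mt3 (−0.57, SE 0.178, adjusted p = 0.0766) were also apart in these females. With 41.1% of all genes at an unadjusted p under 0.05 in limma there, being apart does not single out these members.

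Without APOE3 controls 61 and F6, these 4 differences were −0.73 (Ftl1), 0.37 (Slc11a2), −0.60 (Mt2) and −0.32 (Mt3), with adjusted p from 0.0558 to 0.213. Without APOE3 control 52 instead, the same 4 genes passed 5% FDR, at −1.01, 0.83, −0.90 and −0.66 (limma adjusted p = 0.0475, 0.0251, 0.0432 and 0.0292), and so did 38.9% of all genes tested in that fit. With the length slope as a covariate the differences were −0.44 (Ftl1), 0.25 (Slc11a2), −0.30 (Mt2) and −0.12 (Mt3), with adjusted p from 0.454 to 0.716. The slope had a mean of −0.301 in the APOE3 and −0.038 in the APOE4 controls, and summed oligodendrocyte markers were at 4792 to 6990 and 3750 to 5564 CPM. The part of these markers was not tested. The nPM females are other mice, and there Ftl1 was at 58.2, 97.5, 57.6 and 97.5 CPM in APOE4 and 158, 109, 107 and 118 CPM in APOE3 mice, with no overlap (−0.67, SE 0.20, limma unadjusted p = 0.0073, adjusted p = 0.46). Slc11a2 differed there by 0.14 (SE 0.126), Mt2 by −0.45 (SE 0.184) and Mt3 by −0.34 (SE 0.112), and with the length slope as a covariate the values were −0.45 for Ftl1, −0.08 for Mt2 and −0.16 for Mt3. In filtered air males Ftl1 differed by −0.41 (SE 0.153, unadjusted p = 0.0208) and in nPM males by 0.07 (SE 0.0602). Cp in nPM males was at 7.36, 6.87, 7.47 and 7.05 CPM in APOE4 and 8.78, 10.1, 8.19 and 8.55 CPM in APOE3 mice, with no overlap (−0.28, SE 0.0787, limma unadjusted p = 0.00419, adjusted p = 0.232). The allele and nPM comparisons share these groups of 4 mice.

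Whether nPM acted differently on the members by sex or by allele was tested as a contrast of group means. Averaged over genotypes, 0 of 10 members were called for a sex difference in limma against 1.98% of genes. An unadjusted p under 0.05 was held by 13.7% of all genes and by 2 members, Fth1 (female response minus male −0.39, SE 0.163) and Tfrc (−0.36, SE 0.163). Without B6 male control 0, Fth1 passed the threshold (−0.48, unadjusted p = 0.00186, limma). Fth1 stood at −0.18 (limma unadjusted p = 0.107) with the length slope as a covariate and at −0.31 (unadjusted p = 0.0629) without APOE3 female controls 61 and F6, where Tfrc was at −0.26 (unadjusted p = 0.118). Between alleles, 0 members were called by limma and 0 by edgeR against 0.727% of genes. An unadjusted p under 0.05 in limma was held by 10.6% of all genes and by 1 member, Slc11a2 (APOE4 response minus APOE3 −0.31, SE 0.119). Slc11a2 passed the threshold in limma without APOE3 female control 52 (−0.38, unadjusted p = 0.000945) or nPM 55 (−0.36, unadjusted p = 0.0022), and stood at −0.15 (unadjusted p = 0.0878) without controls 61 and F6 and at −0.16 with the length slope as a covariate. The difference for Ftl1 was 0.38 (SE 0.228, limma unadjusted p = 0.107).

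Mt1 and Mt2 differed between females and males in opposite directions in the B6 and the APOE-TR tables. These comparisons were added after the levels were seen. In B6 mice 5 members passed 5% FDR in limma, against 26.9% of genes, 1 higher in females and 4 lower. Mt1 ranged from 13.3 to 60.7 CPM, with a median of 27.5 CPM, in the 8 females and from 35.0 to 124 CPM, with a median of 64.4 CPM, in the 8 males, and the sexes overlapped (female minus male log2 −1.30, SE 0.262, adjusted p = 0.00135, limma). Mt2 (−1.27, SE 0.221), Mt3 (−0.80, SE 0.164) and Ftl1 (−0.81, SE 0.273) were also lower in females and Slc30a1 was higher (0.61, SE 0.213). Summed astrocyte markers were at 2348 to 3552 CPM in B6 females and 1048 to 2878 CPM in B6 males, and neuron markers at 6613 to 8649 and 2627 to 7477 CPM. Their part in the sex differences was not tested. Ftl1 and Slc30a1 each lost the call in 8 of 16 fits without 1 mouse, and both lost it with no filter on low genes and with the length slope as a covariate, where Mt1 (−0.87, adjusted p = 0.0586) and Mt3 (−0.47, adjusted p = 0.0611) did too.

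In APOE-TR mice 9 members passed 5% FDR in limma and 9 in edgeR, against 62.8% of genes, 5 higher in females and 4 lower. Mt1 was at 45.8 to 88.2 CPM (median 64.9) in the 16 females and 20.1 to 39 CPM (median 32.6) in the 16 males, with no overlap (female minus male log2 1.00, SE 0.0871, adjusted p = 3.1e-10, limma). Mt2 was at 19.6 to 91.1 CPM in females and 10.1 to 22.8 CPM in males (0.94, SE 0.119). Ftl1 (0.71), Fth1 (0.44) and Tfrc (0.29) were higher in females, Slc11a2 (−0.42), Slc40a1 (−0.35), Cp (−0.24) and Slc30a1 (−0.17) were lower, and Mt3 differed by −0.08 (SE 0.0757, adjusted p = 0.393). With the length slope as a covariate 4 members and 29.7% of all genes were called, among the members Mt1 at a log2 difference of at least 0.91 in all 8 alternatives, while Mt2 fell to 0.37 (adjusted p = 0.0616) and Tfrc turned to −0.04. Sex went with depth in this table, since every female library was smaller than every male one, and with markers: all 7 endothelial markers were lower in females (median log2 −1.27) and 5 of 7 oligodendrocyte markers were higher. Their part was not tested.

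The sex difference itself differed between the tables for 7 members at 5% FDR in limma, 3 upward and 4 downward, against 50.8% of genes. The B6 difference minus the APOE-TR difference was −2.34 for Mt1 (SE 0.245), −2.26 for Mt2 (SE 0.237), −1.57 for Ftl1 (SE 0.27) and −0.77 for Mt3 (SE 0.169), and it was 0.92 for Slc40a1 (SE 0.219), 0.78 for Cp (SE 0.227) and 0.74 for Slc30a1 (SE 0.169). Over the 7 alternatives, Mt1 ranged from −2.38 to −1.81 and Mt2 from −2.3 to −1.44. The Mt3 value came to 0.03 with the length slope as a covariate, and that of Ftl1 to −0.60 (adjusted p = 0.14). Genotype, age, duration, nPM batch and table cannot be told apart in this comparison.

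The genes whose levels ran closest to the members were found by Pearson correlation of log2 levels centred within the 12 groups, over 48 mice and 11067 genes. Mt1 was closest to Zfp428 (r = 0.81), Pcsk1n (0.81) and Mt2 (0.80), and Mt2 to Arpc1a (0.80), Mt1 and Sf3b5 (0.78). Mt3 was closest to Rpl36 (0.86), Cst3 (0.86) and Rabac1 (0.85), Fth1 to Rps3a1 (0.90), Rpl14-ps1 (0.87) and BC002163 (0.85), and Ftl1 to Rpl12 (0.79), Rps28 (0.78) and 2310009A05Rik (0.75). Several of these are ribosomal protein genes with short transcripts. Tfrc was closest to Cul1 (0.78), Sema3c (0.76) and Uri1 (0.74), Slc40a1 to Gtf2b (0.83) and Ttc5 (0.79), and Slc11a2 to Ctnnd1 (0.86), Ccdc93 (0.80) and Mast4 (0.79). Slc30a1 was closest to Map3k1 (0.82), Galnt4 (0.79) and Erlin2 (0.78), and Cp to Mut (0.78), Dnajb4 (0.78) and Acta2 (0.75). For Slc30a1 these rested on the B6 mice, with 0.92, 0.83 and 0.87 there and 0.28, 0.41 and 0.31 in APOE-TR mice. Between members, Mt1 and Mt2 ran together in both tables (0.87 in B6 and 0.80 in APOE-TR mice), while Fth1 and Ftl1 were at 0.61 and 0.73. All these values share library, depth and length slope.

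The wider metal genes comprised 66 genes in lists of zinc (25), iron (29) and copper (12) handling. In the 14 comparisons of nPM, allele and their differences by sex and allele, 2 of these genes were called by limma. Slc30a3, which loads zinc into synaptic vesicles, rose with nPM over all mice (log2 0.39, SE 0.126, unadjusted p = 0.00356, adjusted p = 0.301), 1 of 19 zinc genes tested, against 1.49% of all genes. No gene of the wider lists was called in that comparison with the length slope as a covariate, with voom and ComBat, or in the B6 or the APOE-TR mice alone. The same held without APOE3 female control 61 or F6 or both, and without any 1 of APOE3 female nPM 59 or 67, B6 female controls 40, 42 or 43, B6 male controls 0 or 2, B6 female nPM 53 or B6 male nPM 12. Fbxl5, which removes an iron regulatory protein when iron is plentiful, fell with nPM in B6 females (−0.96, SE 0.255, unadjusted p = 0.00213, adjusted p = 0.384), 1 of 19 iron genes tested, against 1.18% of all genes, and none was called there with no filter on low genes or without control 40, 42 or 43. By sex in B6 mice, 4 of 9 copper genes passed 5% FDR, all lower in females, namely Slc31a2, Atox1, Ccs and Sod3, with 4 of 19 zinc genes and 2 of 19 iron genes, where 26.9% of all genes passed. In APOE-TR mice 9 of 12 copper genes passed, 6 higher and 3 lower in females, with 11 of 22 zinc genes and 14 of 24 iron genes, where 62.8% of all genes passed. The zinc transcription factor gene Mtf1 was lower in APOE-TR females (−0.35, SE 0.0648, adjusted p = 4.16e-05, limma), and Mt1 and Mt2 were higher in the same mice.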

How the data were processed

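RNA of cerebral cortex was purified with TRIzol and RNeasy, and stranded mRNA libraries were made. Per the submitters' processing notes, reads were mapped in Partek with TopHat2 2.0.8b to mm10 (GRCm38). The deposited values are CPM that the authors made in a separate table for each exposure; how reads were scaled is not given in the sources used here. In APOE-TR columns, values below 50 times the column's lowest value were whole multiples of it (within 0.02) for 93.1% to 93.9% (below 200 times, 92% to 92.8%), so reads were recovered there for edgeR. In B6 columns this held for 62.1% to 81.5% (56.2% to 69.5%) and read numbers are estimates. The limit of 50 was chosen after the values at 200 were seen.

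CPM were scaled by TMM (edgeR 4.0.16), taken as log2 with 0.5 CPM added, and fitted with limma 3.58.1 (trend; R 4.3.3). Genes above 1.5 times the column's lowest value in every mouse of a fit were kept, and p-values were adjusted by Benjamini-Hochberg over all of them. nPM comparisons were called at an unadjusted p under 0.005 as in the study, allele and sex comparisons at 5% FDR. The model was tested on simulated data. No batch is labelled. Whether mice of a group shared a cage or litter is not given in the sources used here, so p-values measure the spread between these mice. All members are named, with genes of the wider lists where called and the 3 most alike genes per member, of which a few values are not reported here. Members and lists were chosen with earlier results of these data known. Alternatives were other pseudocounts, no filter, no TMM, voom, voom with ComBat (sva 3.50.0), edgeR, shared variance, the length slope, subsets of mice and leaving out each mouse.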

Additional observations from a re-analysis of the deposited data

Results flagged for a closer look

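In groups of 4 mice, 10 of 120 sets of 1 member in 1 group (8.33%) held a mouse far from the other 3 by Dixon's criterion, where chance gives about 1 in 20. For Mt1 these were B6 female control 43 at 35.7 CPM (others 13.3 to 16.9) and APOE3 female control F6 at 59.8 CPM (84.6 to 88.2). For Mt2 they were APOE3 female control 61 at 91.1 CPM (44.9 to 48.1) and APOE3 male control 63 at 10.1 CPM (20 to 21.4), and for Mt3 B6 female control 40 at 45.3 CPM (65.2 to 67.9). Slc30a1 was at 7.31 CPM in B6 male control 3 (others 16.5 to 17.9) and at 30.4 CPM in APOE3 male control 55 (37.4 to 37.9). Ftl1 was at 30.9 CPM in B6 female nPM 52 (others 7.15 to 9.20), where Ftl1 per 1000 CPM of Fth1 was 45.5 CPM against 12.8 to 14.4 CPM in the other 3. Slc11a2 was at 14.1 CPM in B6 male nPM 10 (others 20.2 to 21.1) and at 41 CPM in APOE3 male control 51 (38.5 to 38.7).

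The response of Mt2 to nPM differed between B6 females and B6 males by 1.71 on the log2 scale (limma unadjusted p = 0.000878, adjusted p = 0.51), where 0.867% of all genes were called. This contrast and the next were added after the levels were seen. The sex difference differed between the tables by −2.34 for Mt1, −2.26 for Mt2, −1.57 for Ftl1, −0.77 for Mt3, 0.92 for Slc40a1, 0.78 for Cp and 0.74 for Slc30a1. In that comparison 50.8% of all genes passed 5% FDR.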

How the results depend on the processing

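Counts of members called moved as follows, and the cause was not tested beyond what each setting changes. In the 32 APOE-TR mice alone, 1 member was called for nPM (0.689% of all genes, and 0 members over all mice). It was not Fth1 (limma unadjusted p = 0.0201), and its name is not reported here. For the allele 1 member was called in these mice (5.96% of all genes, and 0 members over all mice), namely Ftl1 (−0.49, limma adjusted p = 0.0327). With a variance shared over the groups of a table, 1 member was called for nPM in B6 females (1.22% of all genes), 3 in APOE3 females (30.8%) and 0 in APOE4 males (0.0297%; 1 member without it), and 6 for the allele in filtered air females (53.9%). For sex in B6 mice, 3 members were called with no filter (9.08% of all genes) and 2 with the length slope as a covariate (12.7%), against 5 otherwise, and in APOE-TR mice 4 with the length slope (29.7%), against 9 otherwise. With the length slope, Tfrc turned to −0.04 for sex in APOE-TR mice and Mt3 to 0.03 for the sex difference between tables. With each mouse left out in turn, counts ranged from 0 to 2 for nPM in B6 females, 0 to 1 for nPM in APOE4 males, 0 to 4 for the allele in filtered air females, 0 to 1 for nPM by sex and for nPM by allele, 1 to 2 for nPM by sex in B6 mice and 3 to 5 for sex in B6 mice. edgeR on recovered reads was not run for comparisons that include B6 mice, since their values were less often whole. No paired analysis was possible because the groups compared are made of different mice. The precision is limited by 4 mice a group, and whether ferritin reads were split between gene copies was not tested.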
